A study of Homo sapiens with 2 samples.

Results

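The genes of the receptors for BAFF, APRIL and CD40 ligand, with the genes of these ligands and of the related receptors CD30 and HVEM, were followed in Ramos cells and in their rituximab-resistant derivative. The members were 9 genes, chosen by symbol as B-cell survival receptors of the TNF receptor family and their ligands: TNFRSF13B, TNFRSF13C, TNFRSF17, CD40, CD40LG, TNFSF13B, TNFSF13, TNFRSF8 and TNFRSF14. All 9 had a row among the 37122 genes of the RNA-seq count table. Ramos is a human Burkitt's lymphoma cell line of B-cell origin, and Ramos640 was derived from it by growth in escalating rituximab, an antibody against CD20, with normal human serum as the source of complement. Ramos640 cells were re-treated every 21 days with rituximab and 20% normal human serum to keep their resistance, at a rituximab dose of 640 mg/mL in the sample labels and of 640 μg/mL in the methods of the study. Both cell lines grew in the same medium with bovine serum and antibiotics, and Ramos cells had no such treatment described. RNA of 3 passages of each line was pooled into 1 library, so no value below has a replicate check, and the resistant line is a single selected derivative.

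BAFF (TNFSF13B) and APRIL (TNFSF13) are cytokines made mainly by myeloid and stromal cells, and CD40 ligand (CD40LG) is displayed mainly by activated T cells. B cells receive them through the BAFF receptor (TNFRSF13C), which binds BAFF, through TACI (TNFRSF13B) and BCMA (TNFRSF17), which bind both cytokines, and through CD40. In mature B cells the BAFF receptor maintains survival, in plasma cells BCMA does, and CD40 carries the help of T cells in the germinal centre. The BAFF receptor and CD40 recruit TRAF3 and TRAF2, which otherwise keep the kinase NIK (MAP3K14) at a low level, and so release the non-canonical NF-κB proteins p52 (from NFKB2) and RelB. CD30 (TNFRSF8) and HVEM (TNFRSF14) are related receptors found on lymphocytes.

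The libraries held 38030090 reads (Ramos) and 30871826 reads (Ramos640), and 18778 genes had at least 10 reads in both libraries together. Counts were divided by size factors of 1.141 and 0.8763, and fold changes, always Ramos640 over Ramos, are on the log2 scale with 1 added to each normalized count. The 95% interval beside it was converted from the exact binomial (Clopper-Pearson) interval of how a gene's reads divided between the libraries, and covers counting error only. B-cell markers had reads in both libraries, led by the B-cell receptor component CD79B (69495 and 82890 reads). The gene of CD20 itself, MS4A1, was lower in Ramos640, with 9654 and 1904 reads (log2 fold change -1.96, interval from -2.03 to -1.89).

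Per length of transcript, BCMA and CD40 were the main receptors of the group in both libraries. Levels of different genes are given here as RPKM, which divides the reads by annotated exon length and by the total of the library, with exact Poisson 95% intervals. TNFRSF17 stood at 48.9 RPKM in Ramos (interval from 46.7 to 51.1) and at 27.9 in Ramos640 (26.1 to 29.8). CD40 followed at 9.52 RPKM (9.11 to 9.95) and 14.0 RPKM (13.4 to 14.5). Both lay above the 70th percentile of level among the genes with at least 10 reads, TNFRSF17 at 92.6 in Ramos and 88.0 in Ramos640, and CD40 at 71.6 and 78.8. All other members were lower. TNFRSF13B had 1.70 RPKM in Ramos and 1.90 in Ramos640, and TNFRSF14 had 1.64 and 1.65, so that these neighbours in the order overlapped in both libraries. Over the longest transcript alone they did not, with TNFRSF13B at 3.06 RPKM (2.68 to 3.48) in Ramos and 3.41 (2.96 to 3.90) in Ramos640, and TNFRSF14 at 2.39 (2.16 to 2.64) and 2.41 (2.15 to 2.69). TNFRSF13C had 0.757 RPKM (0.624 to 0.911) in Ramos, overlapping TNFSF13 at 0.739 (0.569 to 0.944). In Ramos640 the intervals of this pair were apart, with TNFRSF13C at 0.248 RPKM (0.167 to 0.354) and TNFSF13 at 0.811 (0.614 to 1.05). TNFRSF8 had 0.0552 and 0.110 RPKM, its Ramos640 interval (0.0588 to 0.189) overlapping that of TNFRSF13C, and TNFSF13B and CD40LG had at most 2 reads in either library. The order of the other genes was the same in Ramos640 as in Ramos, apart from TNFSF13, which stood above TNFRSF13C there.

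**Figure D1:**
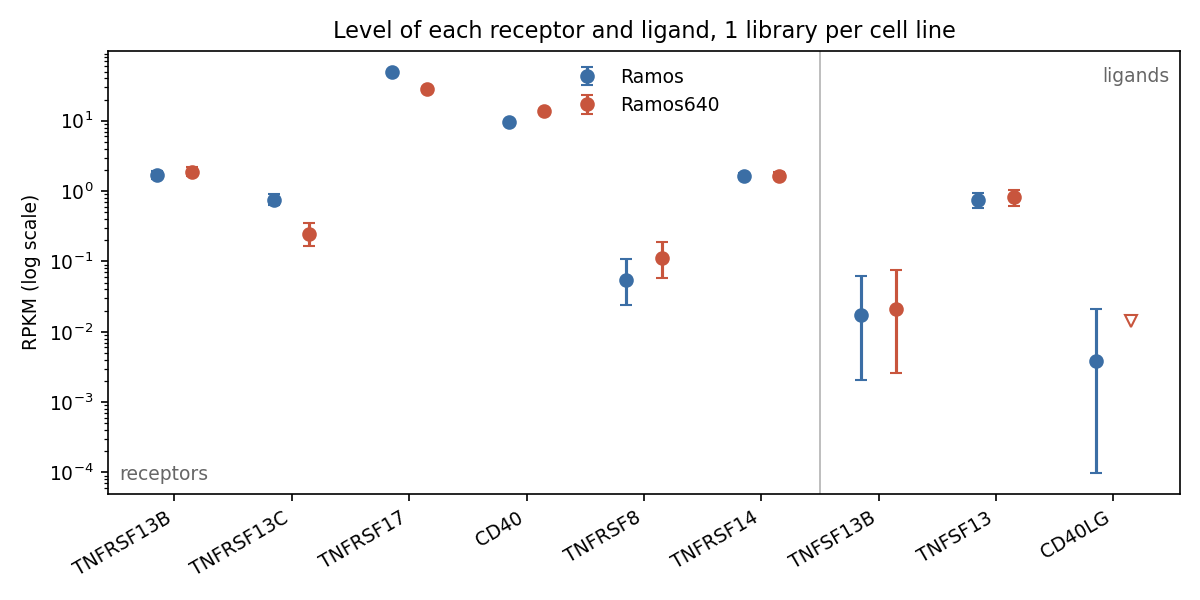
RPKM (log axis) of the 6 receptors and 3 ligands in the Ramos and Ramos640 libraries, 1 point per library with its exact Poisson 95% interval; the open triangle is the level of 3 reads, the limit for CD40LG with its 0 reads in Ramos640. TNFRSF17 and CD40 lead in both libraries, and TNFRSF13C is at 0.757 RPKM in Ramos and 0.248 in Ramos640.

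On the log2 scale, the BAFF receptor gene showed the largest difference of the 7 members with at least 10 reads. TNFRSF13C, on the minus strand of chromosome 22 of GRCh37 from 42318036 to 42322810, had 113 reads in Ramos and 30 in Ramos640. After scaling these were 99 and 34.2 normalized counts, and the log2 fold change was -1.51 (interval from -2.16 to -0.94), a 2.84-fold lower value in Ramos640. Of the 18778 genes with at least 10 reads, 837 had a fold change as low or lower, which put TNFRSF13C at the 4.45th percentile. Its transcript is rich in GC (56.1%), and GC-rich genes tended to be higher in the Ramos640 library, so that removing the running median over GC content moved the value to -1.66.

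A microRNA gene, MIR378I, lies inside the last exon of TNFRSF13C on the same strand (chromosome 22 from 42319226 to 42319301 of GRCh37) and has a row of its own in the table. Its mature sequence is shown because reads over this stretch of the BAFF receptor transcript could have been counted to either gene. The sequence is that of RefSeq (GRCh38.p14), with the seed, bases 2 to 8, in capitals.
hsa-miR-378i: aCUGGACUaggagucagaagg
The row of MIR378I held 47 reads in Ramos and 29 in Ramos640, and its log2 fold change of -0.31 had an interval (-1.04 to 0.38) that included 0. On its 76 bases this was 618 reads per kilobase in Ramos, against 28.8 over the 3923 exon bases of TNFRSF13C. A read can overlap so short a gene only in part, so these densities are not directly comparable. With both rows summed the reads were 160 and 59, and the log2 fold change was -1.05 (interval from -1.51 to -0.62), still lower in Ramos640 by more than 1.5-fold. The counting program is not given, and any read counted to both rows would enter this sum more than once.

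BCMA was lower as well, from a far higher level. TNFRSF17, on chromosome 16 from 12059067 to 12061925, had 1887 reads in Ramos and 874 in Ramos640, or 1654 and 997 normalized counts. The log2 fold change was -0.73 (interval from -0.85 to -0.61), a 1.66-fold lower value. Its transcript is poor in GC (41.5%), where genes tended to be lower in Ramos640, and after removal of the GC trend the value was -0.54, short of the 1.5-fold limit of 0.585 on this scale. NPIPB2, a gene on the opposite strand whose span overlaps TNFRSF17 without a shared exon base, had 198 and 105 reads.

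TACI did not show such a difference. TNFRSF13B, on chromosome 17 from 16833130 to 16875432, had 230 reads in Ramos and 208 in Ramos640 (202 and 237 normalized counts). The log2 fold change was 0.23, and its interval of -0.042 to 0.51 included 0 but not a difference of 1.5-fold in either direction. No change could be told from counting error here. The pseudogene TBC1D27 shares exon bases with TNFRSF13B on the same strand and had 33 and 24 reads, and with its reads added the value was 0.20.

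By reads, the make-up of the BAFF and APRIL receptors differed between the libraries. Each receptor was set against the others within a library, which needs no scaling between libraries but keeps the GC trend. With that trend removed, the log2 fold changes of the single genes were 0.0067 for TNFRSF13B, -1.66 for TNFRSF13C and -0.54 for TNFRSF17. TNFRSF17 held 84.6% of the reads of the 3 receptor genes in Ramos (exact binomial 95% interval from 83.1% to 86.1%) and 78.6% in Ramos640 (76.1% to 81.0%). TNFRSF13B held 10.3% (9.08% to 11.7%) in Ramos and 18.7% (16.5% to 21.1%) in Ramos640. The share of TNFRSF13C was 5.07% (4.19% to 6.06%) in Ramos and 2.70% (1.83% to 3.83%) in Ramos640. None of these intervals overlapped between the libraries. The shares of each library add up to the whole, so with TNFRSF13C and TNFRSF17 lower, that of TNFRSF13B had to be higher. Scaled between libraries, TNFRSF13B alone was at 0.23, and its counting limits of -0.042 and 0.51 lay on both sides of 0. Separation beyond counting error was common among all 18778 genes with at least 10 reads. For single scaled genes, 5555 counting intervals lay above 0 and 5940 below it, a measure unlike these shares. With the reads of MIR378I counted to TNFRSF13C, its share was 7.03% (6.01% to 8.15%) in Ramos and 5.17% (3.96% to 6.62%) in Ramos640, and these intervals overlapped, while those of TNFRSF13B and TNFRSF17 did not. From the own rows there were 2.04 reads of TNFRSF13B for each read of TNFRSF13C in Ramos and 6.93 in Ramos640. Shares of reads do not allow for the lengths of the genes. As shares of the summed RPKM, TNFRSF17 held 95.2% in Ramos and 92.9% in Ramos640. TNFRSF13B held 3.31% and 6.31%, and TNFRSF13C held 1.48% and 0.825%.

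**Figure D2:**
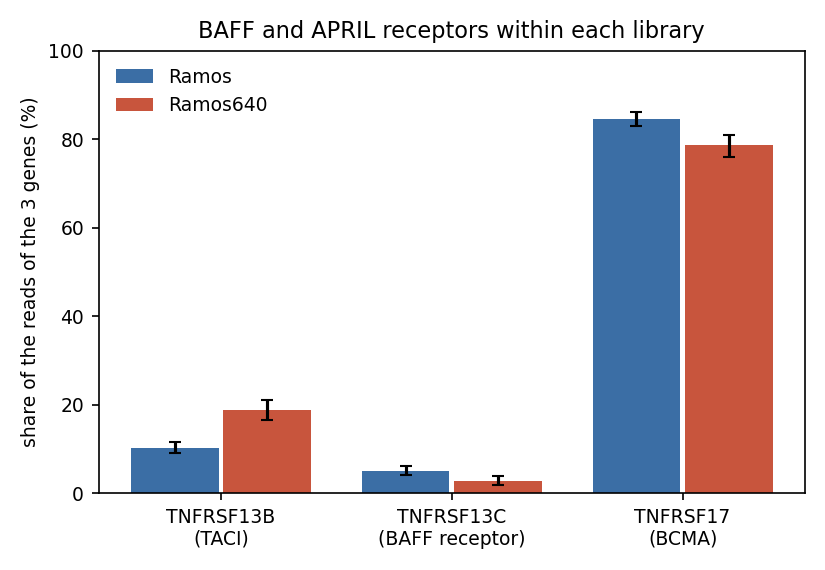
Share (%) of the reads of TNFRSF13B, TNFRSF13C and TNFRSF17 taken by each gene in the Ramos and Ramos640 libraries, with exact binomial 95% intervals for counting error only. Reads are not divided by gene length, and the shares of each library add up to the whole. The share of TNFRSF13B is 10.3% in Ramos and 18.7% in Ramos640, while the shares of the other genes are lower in Ramos640.

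CD40 went the other way. The gene, on chromosome 20 from 44746910 to 44758502, had 2035 reads in Ramos and 2425 in Ramos640, although the Ramos640 library was the smaller one. These were 1783 and 2767 normalized counts, a log2 fold change of 0.63 (interval from 0.55 to 0.72) or a 1.55-fold higher value. It lay just past the 1.5-fold limit, and with total counts as the scale the value was 0.55, just short of it. Against TNFRSF17 the difference was plain in the raw reads. In Ramos there were 0.927 reads of TNFRSF17 per read of CD40, and in Ramos640 there were 0.360, a change of -1.36 on the log2 scale (counting interval from -1.51 to -1.22).

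The related receptors CD30 and HVEM gave less. TNFRSF8 (CD30), on chromosome 1 from 12123360 to 12204264, had 8 reads in Ramos and 13 in Ramos640. The log2 fold change of 0.98 passed the 1.5-fold limit, but its interval ran from -0.30 to 2.56 and included no change. TNFRSF14 (HVEM), also on chromosome 1, from 2487078 to 2496821, had 387 and 317 reads (339 and 362 normalized counts) and a log2 fold change of 0.093 (interval from -0.13 to 0.31). Its interval leaves out a 1.5-fold difference in either direction. The antisense gene TNFRSF14-AS1 shares 826 exon bases with TNFRSF14 on the opposite strand and had 55 and 9 reads in a row of its own. Whether the counting used strand is not given in the sources used here, so reads of this pair could not be told apart.

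Among the binding partners of these receptors, the CD30 ligand gene TNFSF8 stood at a far higher level than its receptor, at 28.1 RPKM in Ramos and 20.2 in Ramos640, from 4926 and 2868 reads (log2 fold change -0.40, interval from -0.47 to -0.33). BTLA, an inhibitory receptor that binds HVEM, had 210 and 118 reads (-0.45, interval from -0.79 to -0.12). LTA, which encodes lymphotoxin α, another ligand of HVEM, was higher in Ramos640 by more than 1.5-fold with 285 and 362 reads (0.72, interval from 0.50 to 0.96, and 0.55 with the GC trend removed, inside the limit). The gene of the HVEM ligand LIGHT, TNFSF14, had 3 reads in Ramos and 0 in Ramos640, and CD160 had 3 and 6.

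Of the ligands themselves, only APRIL was read in more than single reads. TNFSF13, on chromosome 17 from 7461609 to 7464925, had 64 reads in Ramos and 57 in Ramos640 (56.1 and 65 normalized counts). Its log2 fold change was 0.21, and at these read numbers the interval of -0.33 to 0.75 could not show a difference in either direction. The readthrough gene TNFSF12-TNFSF13 shares 1263 exon bases with it and had 33 and 17 reads, while TNFSF12 alone, which encodes TWEAK, had 0 and 1. With the readthrough row added, TNFSF13 had 97 and 74 reads and a value of -0.0093. TNFSF13B (BAFF; chromosome 13 from 108903588 to 108960832) had 2 reads in each library. CD40LG, on the X chromosome from 135730317 to 135742549, had 1 read in Ramos and 0 in Ramos640. Both genes were at or under the 3 reads that a count of 0 allows (0.0789 CPM in Ramos and 0.0972 CPM in Ramos640), and no fold change is given for them.

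Markers of the cell types that make these ligands had few reads in either library. Of 9 T-cell markers, 6 had 0 reads in both libraries (CD3D, CD2, CD5, CD7, CD8A and TRAT1), and the list summed to 17 reads in Ramos and 51 in Ramos640. CD3E had 1 read in Ramos and 31 in Ramos640, CD4 had 11 and 19, and CD3G had 5 and 1. The 9 myeloid markers summed to 32 reads in each library, with ITGAM and FCGR3A at 0 in both and LYZ at 0 and 1. Both libraries were made from cultures of a B-cell line, so the reads of these markers do not measure numbers of T cells or myeloid cells. Where these reads came from was not tested.

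Set against all genes, the members did not move as a group. The 1.5-fold limit was applied in both directions to the 7 members with at least 10 reads, and TNFSF13B and CD40LG were left out. CD40 and TNFRSF8, 2 of the 7, were past the limit towards higher values in Ramos640, where 14.6% of all 18778 genes were. TNFRSF13C and TNFRSF17, also 2 of the 7, were past it towards lower values, against 17.3% of all genes. When the counting interval had to leave out 0 as well, CD40 remained on the higher side (11.4% of all genes), and TNFRSF13C and TNFRSF17 remained on the lower side (13.7% of all genes). With 7 genes these counts are too few to be read as a share above or below that of all genes.

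**Figure D3:**
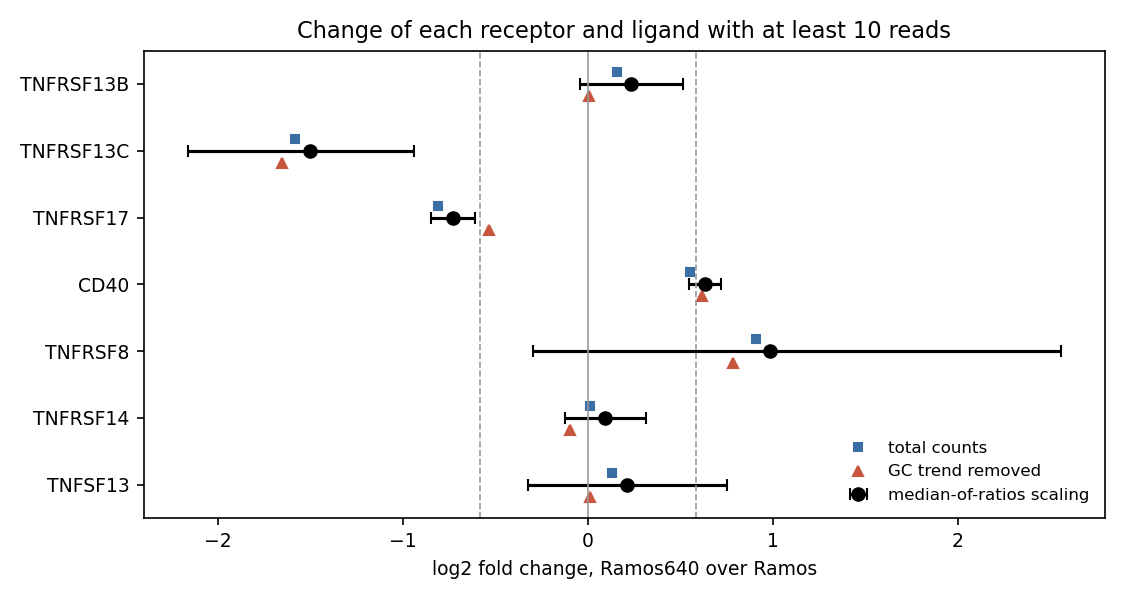
Log2 fold change of Ramos640 over Ramos for the 7 genes with at least 10 reads, as black points with 95% counting intervals; blue squares use total counts as the scale, red triangles have the GC trend removed, and dashed lines mark a 1.5-fold difference. TNFRSF13C (-1.51) is past the limit under every scaling drawn, TNFRSF17 (-0.73) comes inside it with the GC trend removed, and CD40 (0.63) with total counts.

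**Figure D4:**
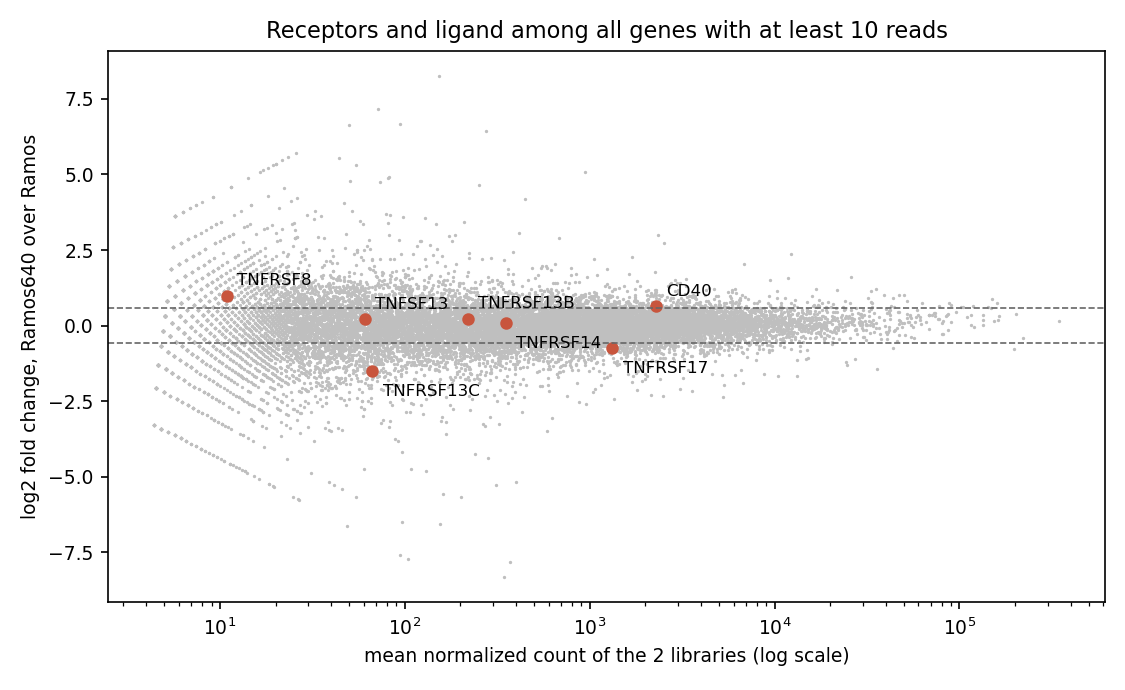
Log2 fold change of Ramos640 over Ramos against the mean normalized count of the 2 libraries (log axis) for the 18778 genes with at least 10 reads in grey, with the 7 receptor and ligand genes in red and dashed lines at 1.5-fold. TNFRSF13C (-1.51) lies well below the lower dashed line, where other genes of its abundance also lie, and CD40 and TNFRSF17 lie near the dashed lines.

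Comparing the 7 genes in pairs within each library needs no scaling between libraries, but the GC trend is not removed. Of the 21 pairs, 13 had a change of their read ratio whose counting interval left out 0. The pairs are all built from the same 7 genes and are not separate results. Among all 18778 genes with at least 10 reads, 5555 had a fold change with a counting interval above 0 and 5940 below 0. Those numbers are for single genes scaled between libraries, a measure unlike the read ratios of pairs, so they are not a direct background for them. TNFRSF13C was lower in Ramos640 relative to each of the other 6 genes, by -0.80 on the log2 scale against TNFRSF17 (interval from -1.40 to -0.21) and by -2.17 against CD40 (from -2.75 to -1.58). With the MIR378I reads added, 5 of these 6 intervals left out 0, and the change against TNFRSF17 was -0.33 (from -0.77 to 0.12). TNFRSF17 was lower relative to each of the 5 genes other than TNFRSF13C. CD40 was higher relative to TNFRSF14 by 0.54 (from 0.31 to 0.77), and TNFRSF13B was lower relative to CD40 by -0.40 (from -0.68 to -0.11). The pairs among TNFRSF13B, TNFRSF14 and TNFSF13 all had intervals that included 0.

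Most neighbouring genes on the chromosomes had smaller differences than TNFRSF13C and CD40, or differences in the other direction, as did most of all genes with at least 10 reads. Within 1 Mb on each side of TNFRSF13C there were 36 protein-coding genes with at least 10 reads, with a median log2 fold change of 0.11, 35 of them were above TNFRSF13C, and 4 were lower and 4 higher by more than 1.5-fold. Around CD40 there were 23 such genes with a median of 0.17, 22 of them were below CD40, and 2 were higher and 5 lower by more than 1.5-fold. Around TNFRSF17 the median over 13 neighbours was -0.21, 4 neighbours were lower by more than 1.5-fold, and 3 were lower than TNFRSF17 itself. Over all genes, 14.6% were higher and 17.3% were lower by that limit. Of all genes with at least 10 reads, 4.45% were below TNFRSF13C, 13.5% below TNFRSF17 and 86.9% below CD40. The neighbours are too few to be read as differing from these shares.

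Downstream of the receptors, the adaptor TRAF3 and the non-canonical NF-κB subunits were higher in Ramos640, while 8 of 13 signalling genes lay within 1.5-fold. The counts of each list stand beside 14.6% higher and 17.3% lower over all genes. Of the 13 genes of TRAF and non-canonical NF-κB signalling, all with at least 10 reads, 3 were higher by more than 1.5-fold (TRAF3, RELB and NFKB2) and 2 were lower (TRAF1 and OTUD7B), with a median log2 fold change of -0.15 against -0.015 over all genes. TRAF3, which restrains NIK, had 42 and 208 reads (2.66, interval from 2.21 to 3.20). RELB had 2065 and 3486 reads (1.14) and NFKB2 had 1821 and 2623 (0.91). TRAF1, an adaptor whose own gene is a target of NF-κB, was lower with 1720 and 847 reads (-0.64). TRAF2, with 1110 and 1234 reads (0.53), TRAF6, with 380 and 225 (-0.37), and MAP3K14, with 830 and 698 (0.13, interval from -0.016 to 0.28), stayed inside the limit.

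In canonical NF-κB signalling, 3 of 12 genes were higher by more than 1.5-fold and none was lower, with a median of 0.18. These were TNFAIP3 (368 and 541 reads, 0.93), an inhibitor that edits ubiquitin chains, the kinase gene IKBKB (1562 and 1900 reads, 0.66) and the inhibitor gene NFKBIE (848 and 1004 reads, 0.62). RELA, with 2739 and 3100 reads, was at 0.56. With total counts as the scale, 1 gene was higher and 1 was lower, and with the GC trend removed 1 was higher (TNFAIP3) and none was lower.

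Genes that CD40 or NF-κB signalling is known to induce were split. Of 22 listed genes, 19 had at least 10 reads, of which 8 were higher and 4 were lower in Ramos640 by more than 1.5-fold, with a median of -0.042. Beside RELB, NFKB2 and TNFAIP3, the list's higher genes included FAS, LTA and BATF, and its lower genes included the costimulatory ligand gene CD86, with 465 and 159 reads (-1.16, interval from -1.44 to -0.90). CD44, with 53 and 12 reads (-1.69, interval from -2.80 to -0.84), and SLAMF1, with 20 and 5, were lower too. With the GC trend removed, 5 genes of the list were higher and the median was 0.30. LTA (0.55), BATF (0.56) and NFKBIE (0.42) then came inside the limit, while FAS (0.97) stayed past it. The chemokine genes CCL17 and CCL22 had at most 1 read. This list shares TRAF1, BIRC3, NFKB2 and RELB with the first list and NFKBIA, NFKBIE and TNFAIP3 with the second.

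BCMA is shed from the cell surface by γ-secretase, and BAFF and APRIL are cleaved by furin-like proteases. Of 11 such genes and binding partners, 10 had at least 10 reads, 2 were higher by more than 1.5-fold and none was lower (2 were with total counts as the scale), with a median of 0.059. PSEN2, a catalytic subunit of γ-secretase, had 597 and 1468 reads (1.68, interval from 1.54 to 1.82). The subunit genes PSENEN (0.28) and APH1B (-0.51) stayed inside the limit. FURIN, with 31 and 45 reads (0.89), was the other higher gene, and CAMLG, which encodes a protein that binds TACI, had 2026 and 1086 reads (-0.52). SDC1, whose heparan sulphate chains bind APRIL, had 1 and 3 reads.

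**Figure D5:**
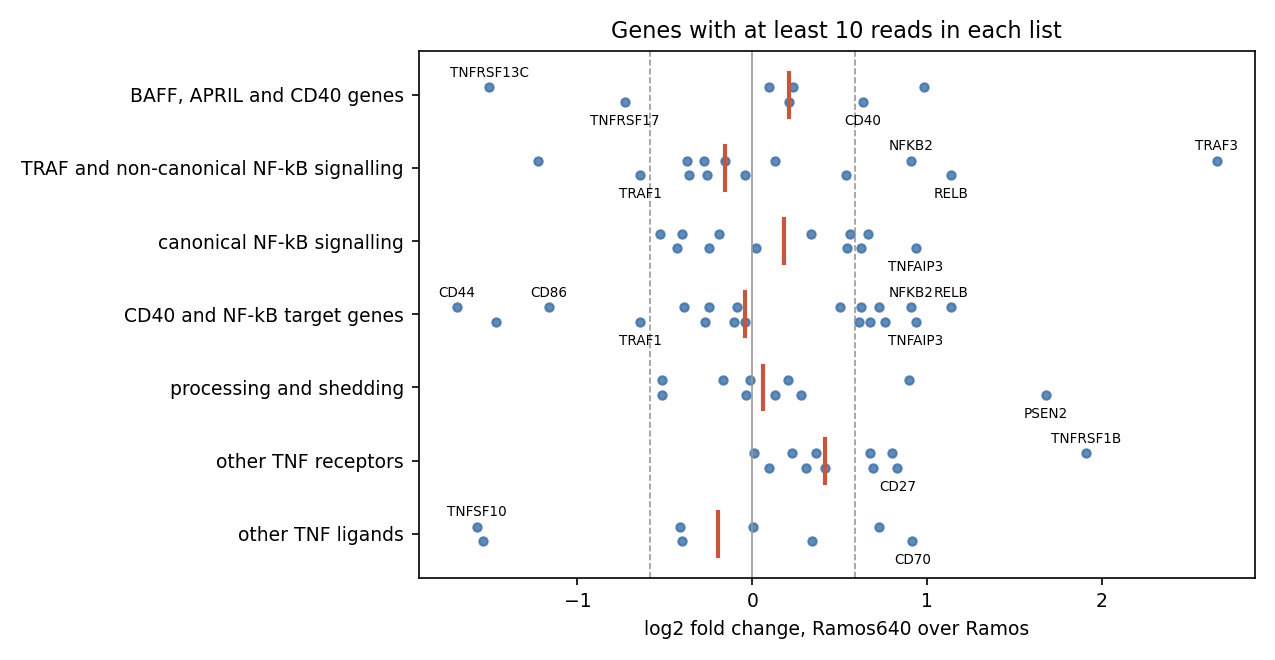
Log2 fold change of Ramos640 over Ramos for each gene with at least 10 reads in 7 gene lists, 1 point per gene, with the median of each list as a red bar and dashed lines at 1.5-fold; selected genes are labelled and some genes are in more than 1 list. The medians lie between -0.20 and 0.42, inside the 1.5-fold lines, with TRAF3 (2.66) farthest to the right.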

How the data were processed

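RNA-seq libraries of Ramos and Ramos640 cells, 1 per cell line from RNA pooled over 3 passages, were sequenced on the Ion Proton. The authors removed adaptors, aligned reads to GRCh37 with MapSplice (2.1.6) and deposited whole-number counts per gene. The counting program, its annotation and its strand setting are not given in the sources used here.

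Each library was grouped by its title. With 1 library per group, neither a test nor a dispersion could be had, so edgeR served only for TMM factors (4.0.16, R 4.3.3). Median-of-ratios size factors, pseudocount 1, a minimum of 10 reads in both libraries together and the 1.5-fold limits of the study were used (Python 3.11.15, numpy 2.4.6, scipy 1.17.1, pandas 2.3.3). Length, GC content and overlaps came from GENCODE v44lift37. Symbols matched for 26511 rows, and older symbols or gene numbers for 5268 more, covering 90.8% of genes with at least 10 reads. For the GC trend, running medians spanned 501 genes, each of at least 100 reads. Read ratios of gene pairs have 95% normal-approximation counting intervals. With 1 library per line, intervals cover counting error only. Reads carry no molecular identifiers, so copies of the same molecule may count as separate reads and make the intervals too narrow. Calculations were tested on simulated counts.

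All members were named, with up to 4 genes of each list with the largest absolute change among those with at least 100 reads, the nearest signalling genes (TRAF2, TRAF3, TRAF6, MAP3K14, NFKB2, RELB), the partners TNFSF8, TNFSF14 and BTLA, and cell markers. Others were named after their values were seen. Members and lists were chosen with earlier results of these data known. Lists covered members, TRAF and NF-κB signalling, targets, partners, processing, other TNF receptors and ligands, and markers of B, germinal centre, plasma, T and myeloid cells. Alternatives were TMM factors, total counts, pseudocounts 0.1 and 10, minimums of 1 and 100 reads, removal of the GC trend, transcript length, and added rows of overlapping genes.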

Additional observations from a re-analysis of the deposited data

How the results depend on the processing

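No paired analysis was possible because each cell line has 1 library, and for the same reason no replicate could be left out. TNFRSF13C stayed lower by more than 1.5-fold under all 8 alternatives run for it, from -1.66 to -1.05, and TNFRSF13B, TNFSF13 and TNFRSF14 stayed within 1.5-fold under all of theirs, with TNFSF13 and TNFRSF14 on both sides of 0. The members past the limit changed as follows, and the cause was not tested. With the GC trend removed, TNFRSF17 was at -0.54 and the number of lower members was 1, while with at least 1 read it was 3, since CD40LG (1 and 0 reads) was counted. The number of higher members was 1 with total counts (TNFRSF8), with pseudocount 10 (CD40) and with at least 100 reads (CD40, since TNFRSF8 was left out). Over all genes, at least 1 read gave 4902 higher and 5547 lower genes and at least 100 reads gave 1359 and 1720, because the minimum sets which genes are counted. The main numbers were 2733 and 3248. Total counts moved the median over all genes by -0.080 and TMM factors by -0.0097. Taking the longest transcript as the length moved CD40 to 16.0 and 23.5 RPKM and TNFRSF13B to 3.06 and 3.41, over 1.5 times their main levels, and left TNFRSF17 first with 55.7 and 31.8. The rows of MIR378I and TBC1D27 were added after seeing the data. With 21 reads in all for TNFRSF8, 4 for TNFSF13B and 1 for CD40LG, depth limits what can be said of these genes.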

Other observations

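Other receptors of the TNF family included genes higher in Ramos640. Of 23 listed receptor genes, 11 had at least 10 reads, 5 of them were higher by more than 1.5-fold and none was lower (14.6% and 17.3% of all genes were), and their median log2 fold change was 0.42, against -0.015 over all genes. CD27, a receptor of memory and germinal centre B cells, had 4808 and 6561 reads (0.83, interval from 0.78 to 0.88), and the gene of its ligand, CD70, had 820 and 1189 (0.92, from 0.79 to 1.05). TNFRSF21, which encodes death receptor 6, had 233 and 289 reads (0.69) and FAS had 233 and 286 (0.67). TNFRSF10A, a receptor for TRAIL, had 1094 and 1123 reads (0.42). The ligand genes were split, with 2 higher and 2 lower among 8 with at least 10 reads and a median of -0.20. TNFSF10, which encodes TRAIL, was lower with 383 and 98 reads (-1.58, from -1.92 to -1.26). Among the ligand genes, 1 was higher and 3 were lower with the GC trend removed. The other higher receptor genes had few reads, TNFRSF1B with 12 and 37 and TNFRSF6B with 4 and 6. The number of higher receptor genes was 3 with a minimum of 100 reads, 4 with pseudocount 10 and 8 with a minimum of 1 read, where 2 were lower.

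Beside BCMA, a receptor of plasma cells, 5 of 6 plasma cell markers had at least 10 reads, 2 were higher by more than 1.5-fold and none was lower, with a median of 0.48. XBP1 had 18028 and 22624 reads (0.71), and PRDM1 had 16 and 31 (1.28, interval from 0.42 to 2.30). MZB1 was at 0.48, the joining chain gene IGJ at 0.32 and IRF4 at -0.053, while TNFRSF17 was lower at -0.73. Among 8 B-cell markers, 1 was higher (CD79B, 0.64, and 0.41 with the GC trend removed, inside the limit) and 3 were lower: CR2, with 1226 and 83 reads (-3.49), MS4A1 (-1.96) and PAX5 (-0.80). Of 7 germinal centre and Burkitt's lymphoma markers, MYC was higher (16186 and 21564 reads, 0.79) and MME was lower (12005 and 4880 reads, -0.92), while BCL6 (-0.36) stayed inside the limit. Over all genes, 14.6% were higher and 17.3% were lower, with a median of -0.015. These marker lists hold too few genes to be read as above or below those shares.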
